A study of Homo sapiens with 12 samples.

Results

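Heat shock and wounding of an epithelial monolayer were set directly against each other, gene by gene, without control arrays in the contrast. The comparison used the 3 arrays of heat shocked and the 3 arrays of wounded A549 monolayers, 6 of the 12 arrays of the series, and covered 18132 genes. A549 is an established line from a human lung adenocarcinoma, often used as a stand-in for alveolar type II epithelium. The other 6 arrays held 3 control monolayers, given neither injury, and 3 monolayers that were heat shocked and then wounded. Heat shock lasted 2 h, and cells wounded alone were wounded for 4 h, the series design calling them multiply wounded. The labels do not say when monolayers that were only heat shocked were lysed, so kind of injury and time cannot be told apart in this contrast. All groups were the same line in RPMI medium with serum on uncoated plastic. Each array received 100 ng of total RNA, and the labels leave unsaid whether a group's 3 arrays represent separate cultures, so p-values measure only the spread between these samples, which may be technical.

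Heat shock unfolds proteins, which frees the transcription factor HSF1 to form trimers and switch on genes of chaperones, proteins that hold, refold or hand over damaged proteins. Members of the HSP70 and HSP40 families fold client proteins together, small heat shock proteins hold unfolded ones, and BAG3 passes them on to autophagy. A scratch through a monolayer deprives cells of neighbours and releases growth factors, and cells at the edge switch on immediate early genes such as FOS and EGR1 through MAP kinases and the serum response factor SRF, then spread and migrate. Lung epithelium relies on both programmes, the first in fever and oxidant stress, the second in closing gaps left by dead cells.

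HSF1 binds inverted repeats of a short block in promoters, and SRF binds the CArG box. The 250 bases before each gene's start (RefSeq, GRCh38.p14) were searched on both strands for the heat shock element, taken as GAA, TTC and GAA, each pair parted by 2 bases of any kind, or as TTC, GAA and TTC spaced likewise, and for the CArG box, and matches of one did not overlap those of the other in the promoters shown. The 4 promoters shown, of genes described in the results, held a match and are written 5′ to 3′, because they set genes from both ends of the comparison beside a chaperone gene from its middle. HSPA6 and SERPINH1 were the chaperone genes with the largest differences toward heat shock, EGR1 was among the genes with the largest differences toward wounding, and HSPA8 is a chaperone gene that did not pass the test. Capitals mark the matches.
HSPA6, chr1:161524290-161524539, plus strand: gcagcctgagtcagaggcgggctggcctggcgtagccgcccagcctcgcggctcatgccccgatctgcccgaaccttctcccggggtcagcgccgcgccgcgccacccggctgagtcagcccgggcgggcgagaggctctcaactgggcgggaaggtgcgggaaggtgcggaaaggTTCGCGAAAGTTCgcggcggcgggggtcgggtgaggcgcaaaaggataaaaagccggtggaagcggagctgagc
SERPINH1, chr11:75562003-75562252, plus strand: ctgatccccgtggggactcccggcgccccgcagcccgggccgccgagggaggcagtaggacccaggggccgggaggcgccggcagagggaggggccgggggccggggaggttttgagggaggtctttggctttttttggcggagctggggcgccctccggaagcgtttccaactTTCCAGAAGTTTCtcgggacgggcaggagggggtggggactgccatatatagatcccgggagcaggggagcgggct
HSPA8, chr11:123062137-123062386, minus strand: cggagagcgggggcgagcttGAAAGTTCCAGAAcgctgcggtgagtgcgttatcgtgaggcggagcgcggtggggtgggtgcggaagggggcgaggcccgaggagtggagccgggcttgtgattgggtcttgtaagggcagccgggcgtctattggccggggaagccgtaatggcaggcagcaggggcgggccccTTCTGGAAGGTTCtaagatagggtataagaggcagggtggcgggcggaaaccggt
EGR1, chr5:138465229-138465478, plus strand: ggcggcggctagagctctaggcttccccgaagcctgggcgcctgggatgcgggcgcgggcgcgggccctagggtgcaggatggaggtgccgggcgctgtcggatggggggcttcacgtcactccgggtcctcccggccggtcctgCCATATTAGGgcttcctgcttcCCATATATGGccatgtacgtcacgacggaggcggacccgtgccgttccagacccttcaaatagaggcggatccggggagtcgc

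The HSPA6 match runs from 74 to 62 bases before the start and that of SERPINH1 from 76 to 64. HSPA8 holds one match from 230 to 218 and another from 55 to 43 bases before its start. In EGR1 a pair of CArG boxes lies at 105 to 96 and at 83 to 74 bases before the start. A heat shock element in these letters stood in 120 of all 27305 promoters (0.439%) and in 52 of the 14425 tested genes with a promoter in the table (0.36%). It stood in 12 of 681 promoters of genes higher after heat shock (1.76%), in 2 of 899 of those higher after wounding (0.222%), and in 6 of the 64 whose genes were at least 2-fold higher after heat shock (9.38%). Those 6 belong to HSPA6, SERPINH1, PHF8, CHORDC1, DOCK10 and the co-chaperone DNAJB6. HSPA6 and SERPINH1 were in the fixed set of named genes, and the others were named after their values were seen. The CArG box stood in 312 of all promoters (1.14%), in 10 promoters of genes higher after heat shock (1.47%) and in 5 of those higher after wounding (0.556%). Among genes at least 2-fold apart, 1 of 64 promoters for heat shock held a CArG box (1.56%) and 1 of 15 for wounding (6.67%). Each of these shares rests on 1 gene, EGR1 on the wound side, so they set no direction. The CArG box stood in 1 of 22 promoters of the immediate early list (4.55%), again that of EGR1. A heat shock element stood in 0 of the 15. The letters are a description of the sequence and not evidence of binding, and most promoters behind the differences hold neither motif in this window.

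Of 18132 genes, 1906 (10.5%) differed between heat shocked and wounded monolayers at a Benjamini-Hochberg adjusted p under 0.05 in limma. Heat shocked cells had the higher level for 817 genes (4.51%) and wounded cells for 1089 (6.01%). Differences are given as heat shocked minus wounded on the log2 scale, so a negative value means a higher level after wounding. Large differences ran mostly the other way. At least 2-fold, 74 genes were higher after heat shock (0.408%) and 16 after wounding (0.0882%), and the largest difference was 5.48 on the log2 scale toward heat shock against 2.09 toward wounding. Among genes that passed, the median size was 0.45 for those higher after heat shock and 0.39 for those higher after wounding, on a background where all genes had a median difference of -0.0049 and a median size of 0.0978. For 1898 of the 1906 the 3 heat shocked and the 3 wounded values did not overlap, and 5134 genes (28.3%) had no overlap whether they passed or not. Without heat shocked replicate 1 the number of genes fell to 1182, without wounded replicate 1 to 1188 and without wounded replicate 2 to 1253.

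**Figure D1:**
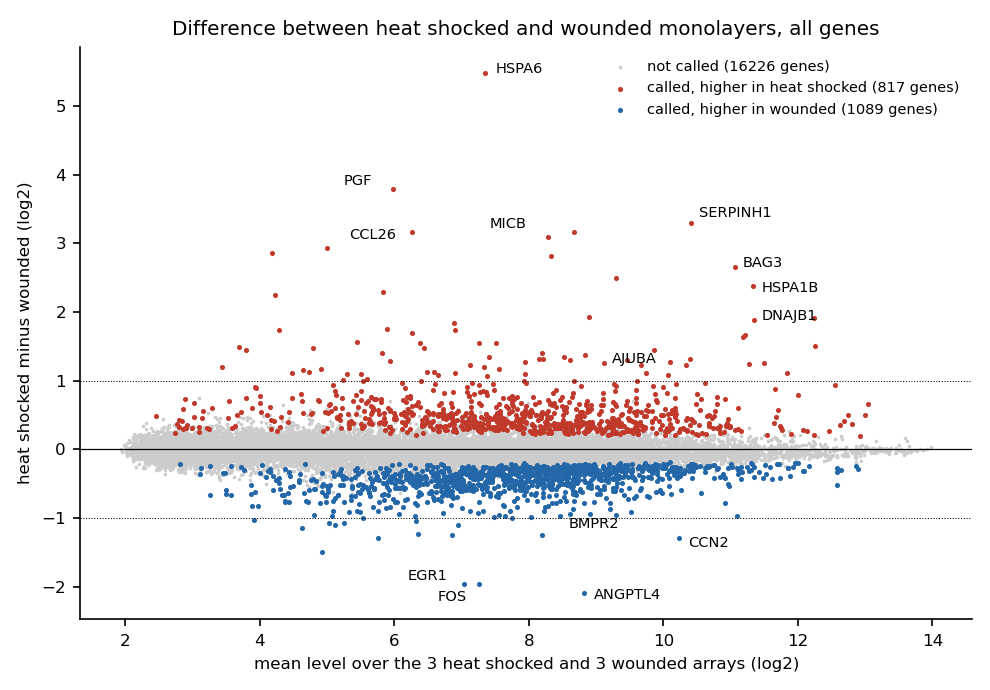
Each point is 1 of 18132 genes, by its mean log2 level over the heat shocked and wounded arrays (horizontal) and its difference, heat shocked minus wounded, in log2 units (vertical), with genes that passed coloured by direction. The 74 genes at least 2-fold higher after heat shock reach 5.48 above the zero line, and the 16 at least 2-fold higher after wounding reach -2.09 below it.

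The 6 arrays had medians between 6.02 and 6.05 log2 units. Pairs of arrays correlated over all genes at 0.9969 to 0.9985 within a group and at 0.9942 to 0.9950 between the groups. A first principal component with 55.5% of the variance separated the injuries, and a second with 18.3% set replicate 3 of both groups apart from replicates 1 and 2, in step with a code in the sample descriptions (S3 against S2) whose meaning the labels do not give. Of all 18132 genes, 11556 had the same sign in the S2 arrays and in the S3 arrays, and 1905 of the 1906 did, which were chosen on these same arrays. Epithelial markers were high in both groups, with the keratin gene KRT18 at 13.77 after heat shock and 13.79 after wounding, and the E-cadherin gene CDH1 at 9.82 and 9.77. Of the genes that mark alveolar type II cells, the surfactant gene SFTPC read 5.97 and 6.06. SFTPA1, SFTPD and LAMP3 lay under the level of the leukocyte and endothelial markers, SFTPA1 at 2.35 and 2.31. In both groups 6 of the 12 alveolar type II markers lay under that level. None of 12 alveolar type II, 10 fibroblast, 10 endothelial or 11 leukocyte markers passed between the injuries. Of 8 epithelial markers 1 (ELF3) was higher after heat shock, and of 8 alveolar type I markers 2 (EMP2, RTKN2) were higher after wounding. Against control, 0 of the 8 epithelial markers passed after either injury. Of the 8 type I markers 0 rose after wounding and 2 fell after heat shock, and 4 lay under the marker level in both groups. With RNA of whole monolayers, fewer cells of a kind and less RNA per cell cannot be told apart. Markers of leukocytes and endothelium, which these cells should lack, reached an upper quartile of 4.77 log2 units, so a fold that starts from a value under this level is approximate.

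Chaperones and other known HSF1 targets had the largest median difference of the 43 gene lists examined. Of 41 measured genes of that list, 31 were higher after heat shock, 1 was higher after wounding and 9 did not pass, with a median difference of 0.77 against -0.0049 for all genes. Against control, 31 of the 41 rose and 1 fell after heat shock, where 12.9% of all genes passed, 4.93% up and 7.92% down. After wounding 2 of the 41 rose and 0 fell, where 3.57% of all genes passed, 2.27% up and 1.31% down. Both comparisons use the same 3 control arrays.

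HSPA6, an inducible HSP70 that unstressed cells hardly make, had the largest difference of all genes. Its levels were 10.34, 10.48 and 9.46 in the 3 heat shocked arrays and 4.79, 4.86 and 4.18 in the 3 wounded ones, beside 4.48, 4.11 and 4.31 in controls. Every heat shocked array stood far above every wounded array, and wounded and control values overlapped near or under the marker level. The difference was 5.48 ± 0.26 (SE, n = 3 arrays a group), or 44.6-fold (limma adjusted p = 1.18e-07). SERPINH1 encodes HSP47, the collagen chaperone of the endoplasmic reticulum. It read 12.20, 12.08 and 11.89 after heat shock and 8.74, 8.80 and 8.75 after wounding, a difference of 3.30 ± 0.11 and 9.82-fold (adjusted p = 5.92e-09). HSPA4L, an HSP110 family member that swaps nucleotides on HSP70, read 10.29, 10.36 and 10.09 against 7.07, 7.17 and 7.02, 8.95-fold. In both genes heat shocked values lay far above all wounded ones, with little spread within a group.

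BAG3 differed by 2.66 ± 0.11 (6.3-fold, adjusted p = 2.62e-08), from 12.51, 12.41 and 12.25 after heat shock against 9.83, 9.85 and 9.52 after wounding. Its partner HSPB8, a small heat shock protein, read 10.58, 10.44 and 10.58 against 8.14, 8.03 and 7.96, with controls at 7.80, 7.70 and 7.73. HSPB8 was also 0.30 above control after wounding (adjusted p = 0.0405), so it was 1 of the 2 list members that rose after both injuries, with DNAJB2, and yet it was 5.63-fold higher after heat shock. The classical HSP70 gene HSPA1B read 12.59, 12.58 and 12.42 against 10.34, 10.47 and 9.63, a difference of 2.38 ± 0.20. Replicate 3 was the lowest of its group in HSPA1B, HSPA6, SERPINH1 and BAG3 after heat shock, but the groups stayed apart in each. HSPA6, HSPA1B and HSPA1L are near-identical in parts of their sequence, and probe sets of one can read the others, so the split between them is uncertain.

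Other chaperone genes spanned a range of sizes. DNAJB1, the HSP40 that stimulates HSP70, differed by 1.88 ± 0.16 (adjusted p = 2.09e-05), and HSPB1 (HSP27) by 1.51 ± 0.10 (adjusted p = 1.86e-06). HSPH1 differed by 1.92, CRYAB by 1.74, FKBP4 by 1.67 and CHORDC1 by 1.64. The HSP90 genes, whose products hold signalling proteins and HSF1 itself, were nearer between injuries, HSP90AA1 at 0.51 ± 0.07 and HSP90AB1 at 0.51 ± 0.06, and the mitochondrial pair HSPD1 and HSPE1 stood at 0.41 and 0.39. HSPD1 lost its call with the mean of all probe sets of a gene. HSPA8, the constitutive HSP70, read 13.73, 13.65 and 13.67 after heat shock and 13.57, 13.64 and 13.45 after wounding, 0.13 ± 0.06, and did not pass (adjusted p = 0.277), though it did with eBayes trend and robust (0.037). HSF1 itself differed by 0.08 ± 0.08 (adjusted p = 0.635), and 0 of 5 heat shock factors and partners passed in limma. The TRiC ring, which folds actin and tubulin, had 4 of 8 subunits higher after heat shock (CCT6A 0.67, TCP1 0.47, CCT4 0.36 and CCT3 0.23). CCT3 was lost without replicate 1 or 2 of either group (adjusted p up to 0.0833) and with the 6 arrays alone.

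HSPA2 was the chaperone that ran the other way. This HSP70, best known from the male germ line, read 9.28, 9.21 and 9.14 after heat shock, 10.00, 9.92 and 9.82 after wounding and 10.21, 10.11 and 10.06 in controls. It was lowest after heat shock on all 3 arrays, at -0.70 ± 0.08 against wounding (adjusted p = 0.000119). It was named after its value was seen.

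**Figure D2:**
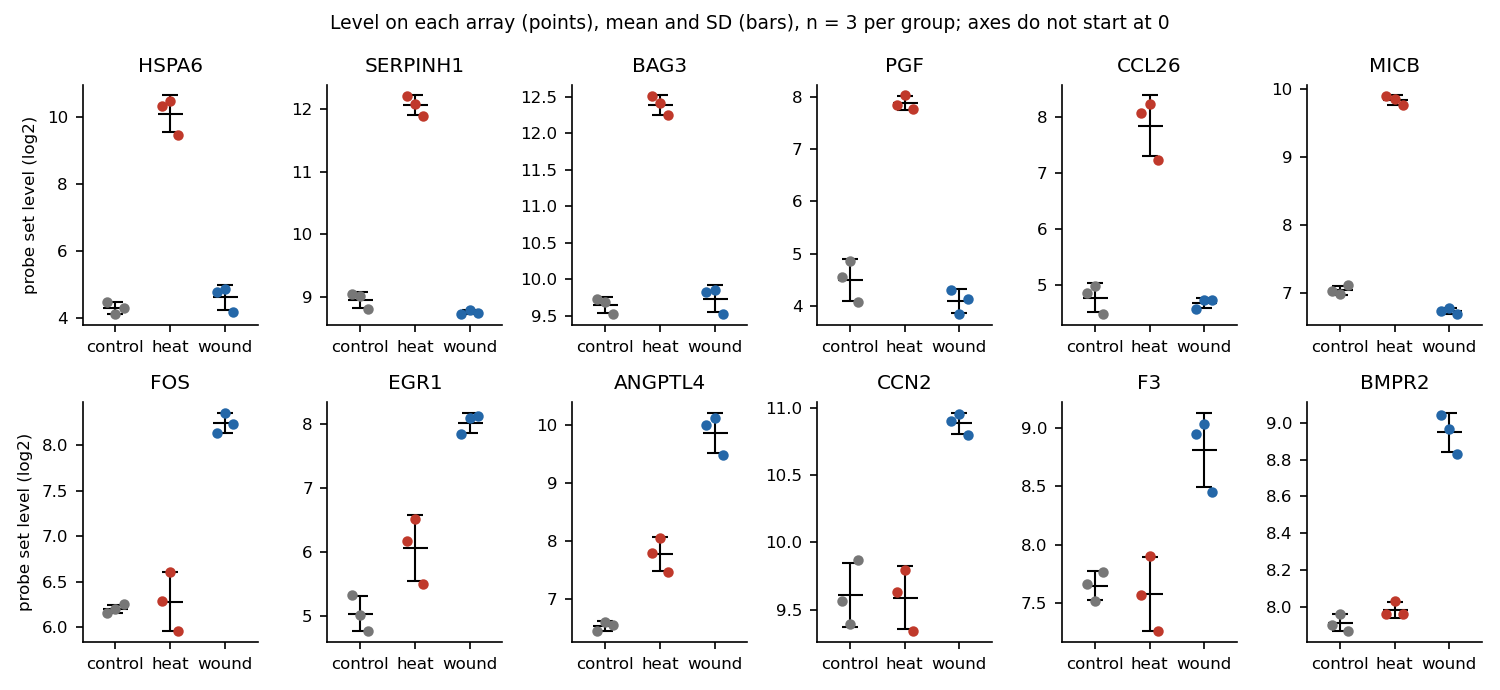
Log2 level (vertical, axes not from 0) of 12 genes on each control, heat shocked and wounded array (points), with the mean and SD of the 3 arrays of a group (bars). HSPA6, SERPINH1, BAG3, PGF, CCL26 and MICB sit higher on the heat shocked arrays, and FOS, EGR1, ANGPTL4, CCN2, F3 and BMPR2 on the wounded arrays.

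Several genes with large differences toward heat shock were not chaperones. PGF, a growth factor of the VEGF family that binds VEGF receptor 1, read 7.84, 8.02 and 7.77 after heat shock and 4.30, 3.84 and 4.13 after wounding, 13.8-fold higher (adjusted p = 1.31e-07). CCL26, the eosinophil chemokine eotaxin-3, read 8.06, 8.23 and 7.23 against 4.58, 4.73 and 4.73, 8.94-fold (adjusted p = 1.21e-05). For both, wounded values lay near or under the marker level and the heat shocked ones well above it.

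MICB, a stress-induced ligand of the natural killer receptor NKG2D, varied little within a group. It read 9.89, 9.85 and 9.76 after heat shock and 6.74, 6.78 and 6.69 after wounding, 3.10 ± 0.07 (8.56-fold, adjusted p = 9.32e-11). It rose by 2.79 against control after heat shock and fell by 0.31 after wounding (adjusted p = 0.0278). Of 8 measured NKG2D ligands, 3 were higher after heat shock and 0 after wounding, beside 4.51% and 6.01% of all genes, with a median difference of 0.31. ULBP1 stood at 1.15 ± 0.16 (adjusted p = 0.000591) from wounded values under the marker level, and MICA at 0.38 ± 0.09, which was lost without heat shocked replicate 2 or wounded replicate 2 (adjusted p up to 0.0611).

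Other large differences toward heat shock were DEDD2 at 2.81 ± 0.13, a death effector domain protein, and the transcription factor DMRT1 at 2.86 ± 0.14. RFPL2 stood at 2.93 ± 0.23 and THAP2 at 2.24 ± 0.24, and in DMRT1, RFPL2 and THAP2 the wounded mean lay under the marker level. SLC5A3, the myo-inositol transporter, stood at 1.93 ± 0.11. Its gene lies within MRPS6, which differed by 1.37, so the probe sets may not be separable. Like the collagen chaperone SERPINH1, subunits of the collagen prolyl hydroxylase were higher after heat shock, P4HA2 reading 10.63, 10.57 and 10.61 against 9.54, 9.53 and 9.50 (adjusted p = 1.39e-05) and P4HA1 differing by 0.64 ± 0.07. The integrin subunit ITGB8, which activates latent TGF-beta, was 1.45 ± 0.18 higher, with all its values under the marker level.

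ANGPTL4 was the gene with the largest difference toward wounding. It encodes a secreted regulator of lipoprotein lipase and of vessels, and read 7.80, 8.04 and 7.47 after heat shock, 9.99, 10.12 and 9.47 after wounding and 6.44, 6.61 and 6.54 in controls. Both injuries raised it, by 1.24 after heat shock and 3.33 after wounding against the same controls (adjusted p = 0.000831 and 4.76e-06). Every wounded array stood above every heat shocked one, and the direct difference was -2.09 ± 0.18, or 4.26-fold higher after wounding (adjusted p = 2.02e-05).

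FOS, a subunit of AP-1, read 6.29, 6.60 and 5.95 after heat shock, 8.14, 8.36 and 8.24 after wounding and 6.16, 6.20 and 6.25 in controls. Heat shocked and control values overlapped, and all wounded values stood above both, at -1.97 ± 0.15 (3.91-fold, adjusted p = 1.08e-05). EGR1, a zinc finger transcription factor, read 6.17, 6.51 and 5.49, 7.84, 8.09 and 8.13 and 5.32, 5.01 and 4.76 in the same order of groups. It rose after both injuries, by 1.03 and 2.99 against control, and was 3.9-fold higher after wounding than after heat shock (adjusted p = 0.000603). CCN2, the matrix protein CTGF that YAP and SRF regulate, read 9.63, 9.80 and 9.34 against 10.90, 10.95 and 10.80 after wounding (-1.30 ± 0.13, adjusted p = 7.52e-05). Heat shocked and control CCN2 values overlapped.

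F3, tissue factor, which starts coagulation, was 2.36-fold higher after wounding, at 8.95, 9.04 and 8.45 against 7.57, 7.90 and 7.26 (adjusted p = 0.001). S1PR5, a sphingosine-1-phosphate receptor, read 5.74, 5.82 and 5.43 after wounding against 4.05, 4.03 and 4.44, the latter under the marker level. SNAI2, which encodes the epithelial mesenchymal transition factor SLUG, rose after both injuries, to 5.24, 5.55 and 4.81 after wounding and 4.35, 4.29 and 3.51 after heat shock from 3.39, 3.11 and 3.09 in controls (-1.15 ± 0.21, adjusted p = 0.00409). Wounded values lay above heat shocked values and both above control, with heat shocked and control values under the marker level. Other genes at least 2-fold higher after wounding were TRIM9 (-1.24), YPEL2 (-1.24), HOXD10 (-1.10), XYLT1 (-1.07) and the metalloprotease ADAM19 (-1.04). XYLT1 was lost without wounded replicate 1 or wounded replicate 2 (adjusted p up to 0.0535), and ADAM19 with the mean of all probe sets of a gene (-0.22, adjusted p = 0.0519).

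**Figure D3:**
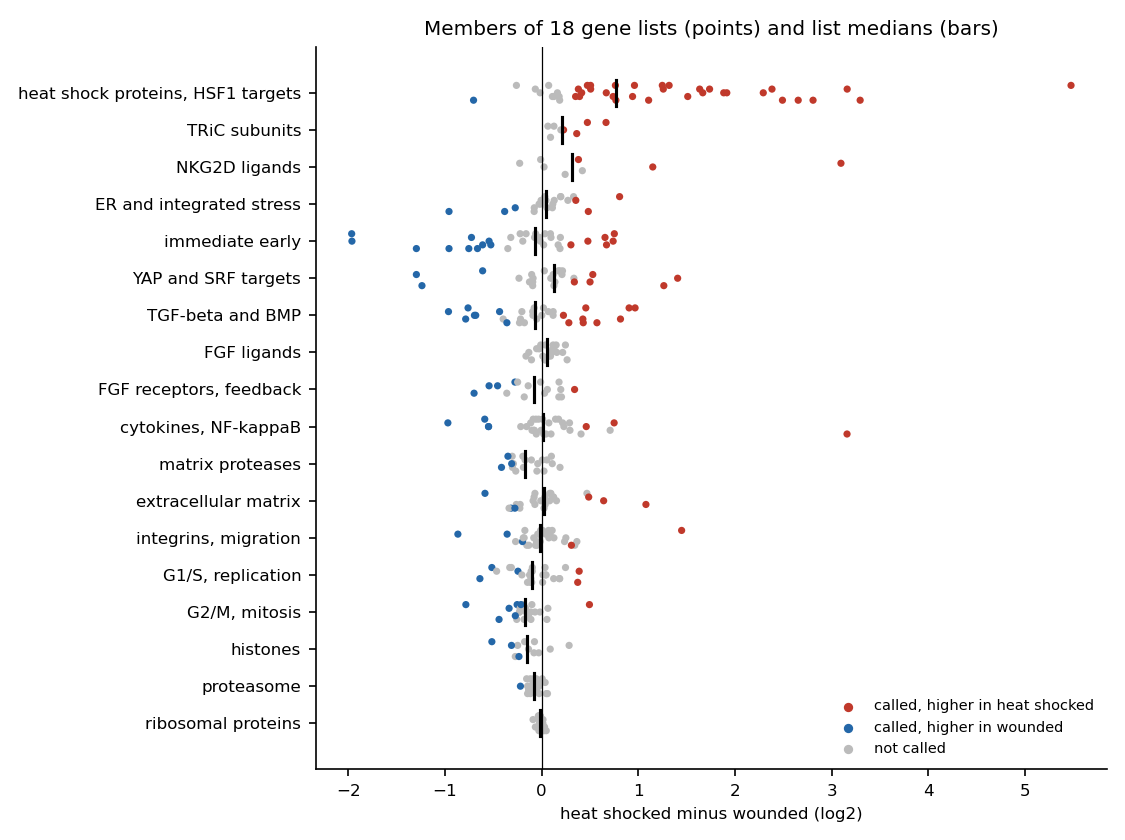
Each point is a measured member of 1 of 18 gene lists, by its log2 difference, heat shocked minus wounded (horizontal), coloured where it passed, and black bars are list medians. Heat shock proteins have a median of 0.77 and reach 5.48, while the immediate early and the TGF-beta and BMP genes spread to both sides of 0.

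Immediate early genes did not separate the injuries in one direction. Of 32 measured, 10 were higher after wounding and 6 after heat shock, beside 6.01% and 4.51% of all genes. The other 16 did not pass, and the median difference was -0.07. Against control 12 rose after heat shock and 15 after wounding, beside 4.93% and 2.27% of all genes, and none fell after either. The wound side held FOS, EGR1, CCN2, ATF3 (-0.96 ± 0.12), NR4A2 (-0.75 ± 0.13), KLF6 (-0.73 ± 0.10), JUN (-0.66 ± 0.13, adjusted p = 0.00526), CCN1 (-0.61 ± 0.12), DUSP6 (-0.54 ± 0.12) and MYC (-0.53 ± 0.08). The heat shock side held MAFF (0.75 ± 0.15), the HSF1 target IER5 (0.74 ± 0.13), NR4A1 (0.67 ± 0.12), DUSP5 (0.66 ± 0.09), FOSL1 (0.48 ± 0.12) and FOSL2 (0.30 ± 0.08). The AP-1 family was therefore split, with FOS and JUN higher after wounding and FOSL1 and FOSL2 after heat shock, while JUNB stood at -0.22 ± 0.12 and did not pass (adjusted p = 0.333). In fits without 1 array, the call of FOSL1 was lost without wounded replicate 1, wounded replicate 2, heat shocked replicate 2 or heat shocked replicate 3 (adjusted p up to 0.096). That of FOSL2 was lost without heat shocked replicate 1 or 3 or wounded replicate 1 or 2 (up to 0.0999) and with the mean of all probe sets, and that of DUSP6 without wounded replicate 1 or 2 (up to 0.0549) and with the 6 arrays alone. The orphan nuclear receptors NR4A1 and NR4A2 likewise lay on opposite sides, and so did the MAP kinase phosphatases DUSP5 and DUSP6.

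Targets of YAP and SRF, which read cell tension and loss of neighbours, were split too. Of 24, 5 were higher after heat shock and 3 after wounding, beside 4.51% and 6.01% of all genes. CCN2, F3 and CCN1 were the 3 on the wound side. AJUBA (1.26 ± 0.11), a LIM protein of cell junctions, CNN2 (0.53 ± 0.06), FHL2 (0.50 ± 0.09) and TEAD1 (0.34 ± 0.07) were on the other, with ANKRD1 (1.41 ± 0.33), which was lost without replicate 1 or 2 of either group (adjusted p up to 0.0708).

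**Figure D4:**
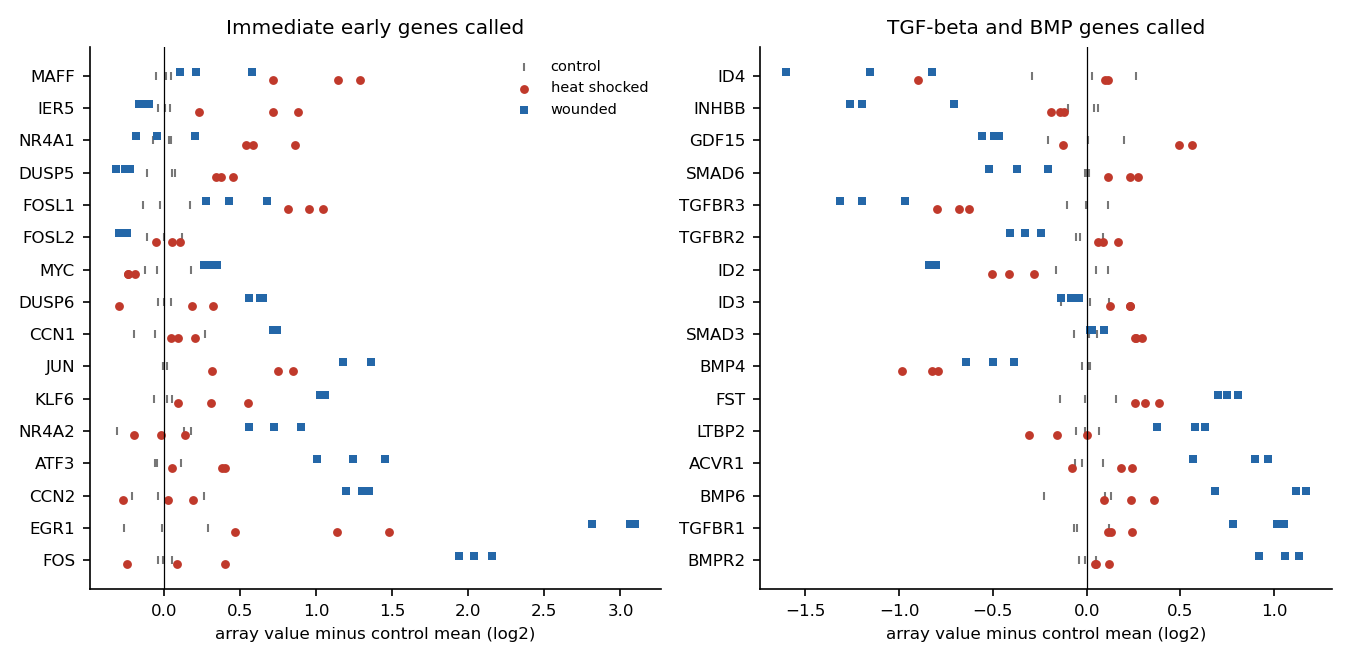
Array values minus the control mean, in log2 units (horizontal), for the immediate early genes (left) and the TGF-beta and BMP genes (right) that passed between the injuries, 1 row a gene and 1 point an array. Wounded arrays lie highest for FOS and EGR1 on the left and for BMPR2 and TGFBR1 on the right, and lowest for ID4 and INHBB.

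The TGF-beta and BMP pathway, in which ligands bind paired type I and type II receptors that signal through SMAD proteins, changed on both sides. Of 30 genes, 9 were higher after heat shock and 7 after wounding, beside 4.51% and 6.01% of all genes. The median difference was -0.06. Against control, 4 of the 30 rose and 4 fell after heat shock, beside 4.93% and 7.92% of all genes. After wounding 10 rose and 9 fell, beside 2.27% and 1.31%. A gene higher after heat shock than after wounding was thus not always called above control. Among receptors, the type II BMP receptor BMPR2 read 7.96, 8.03 and 7.96 after heat shock, 9.04, 8.97 and 8.83 after wounding and 7.90, 7.96 and 7.87 in controls (-0.96 ± 0.08, adjusted p = 1.16e-05). TGFBR1, the type I TGF-beta receptor, read 10.49, 10.60 and 10.47 against 11.37, 11.41 and 11.13 (-0.79 ± 0.09, adjusted p = 0.000132), and ACVR1 stood at -0.70 ± 0.12. In all 3 receptors the wounded values lay above the heat shocked ones. The receptors TGFBR2 (0.43 ± 0.08) and TGFBR3 (0.46 ± 0.09) were higher after heat shock, and TGFBR3 fell by 0.70 after heat shock against 1.16 after wounding.

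Ligands lay on both sides. BMP6 (-0.76 ± 0.13) and BMP4 (-0.36 ± 0.10) were higher after wounding. INHBB, the beta B subunit of activin, was higher after heat shock at 0.91 ± 0.13, from 10.41, 10.46 and 10.48 against 9.40, 9.34 and 9.89, and its control values of 10.50, 10.66 and 10.64 were close to those after heat shock. The ID genes, targets of BMP signalling, were all on the heat shock side where they passed, ID4 at 0.97 ± 0.27, ID2 at 0.43 ± 0.09 and ID3 at 0.28 ± 0.08. Of the inhibitors, SMAD6 was higher after heat shock (0.57 ± 0.09), and the activin binder FST after wounding (-0.44 ± 0.08). The count on the heat shock side was 5 without heat shocked replicate 1, heat shocked replicate 2 or wounded replicate 2. GDF15 (0.82 ± 0.19) was lost without replicate 1 or 2 of either group (adjusted p up to 0.0759). ID4 and ID3 were each lost in 6 of the 12 fits without 1 array (adjusted p up to 0.161 and 0.116), both without control replicate 1, heat shocked replicate 1 or 2, or wounded replicate 2 or 3, ID4 also without control replicate 2 and ID3 also without wounded replicate 1. ID4 was also lost with the probe set of the highest median (0.56, adjusted p = 0.298), with the mean of all probe sets (0.73, adjusted p = 0.0762) and with the 6 arrays alone (adjusted p = 0.0707). BMP4 was lost without heat shocked replicate 1 or 2 or wounded replicate 1 or 3 (up to 0.12).

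Of 22 fibroblast growth factor ligands, 21 had means under the marker level in both groups, which limits what the comparison can show for this family. In limma 0 of the 22 passed, beside 10.5% of all genes. FGF11 had the smallest adjusted p (0.0662) and passed on the heat shock side without heat shocked replicate 2 or without wounded replicate 2 (0.0498 and 0.027). FGF2, the 1 ligand above that level and a mitogen released from damaged cells, stood at -0.03 ± 0.11 (adjusted p = 0.921) and was higher than control by 1.01 after heat shock and 1.04 after wounding. FGF1 differed by 0.04 ± 0.12 (adjusted p = 0.903), with 3.67, 3.80 and 3.39 and 3.57, 3.72 and 3.45, all under the marker level. The heat shocked and wounded group alone was 2.13 above control for FGF1. Of 16 receptors and feedback genes, 4 were higher after wounding, beside 6.01% of all genes. They were the ERK inhibitor SPRED1 (-0.70 ± 0.09), DUSP6, SPRY2 (-0.46 ± 0.08) and FGFR1 (-0.28 ± 0.06). FGFR3 was higher after heat shock (0.34 ± 0.09) but fell against control after both injuries, and the call was lost without any one heat shocked array and without wounded replicate 1 or 2 (adjusted p up to 0.102), and with the mean of all probe sets (0.22, adjusted p = 0.111). Of 13 EGF family genes, 2 were higher after wounding, beside 6.01% of all genes: TGFA (-0.47 ± 0.09) and HBEGF (-0.51 ± 0.12). HBEGF was lost without heat shocked replicate 3 or wounded replicate 2 or 3 (adjusted p up to 0.0687). TGFA was lost with the mean of all probe sets (-0.18, adjusted p = 0.258).

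Cytokines and NF-kappaB genes gave 3 higher after heat shock and 4 after wounding of 31, beside 4.51% and 6.01% of all genes. CCL2, the monocyte chemokine, stood at -0.97 ± 0.11 (adjusted p = 0.000146) and NFKB1, a subunit of NF-kappaB, at -0.59 ± 0.07. LIF and RELB were also higher after wounding, each at 0.55 in size (-0.55 ± 0.11 and -0.55 ± 0.09). CCL26, the receptor chain IL6ST (0.46 ± 0.08) and CXCL2 (0.75 ± 0.20) were higher after heat shock, CXCL2 losing its call without any one wounded array and without heat shocked replicate 1 or 2 (adjusted p up to 0.12). The heat shock side had 6 genes without heat shocked replicate 3.

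Matrix proteases and the plasminogen system had 3 of 19 genes higher after wounding, MMP7 (-0.42 ± 0.11), SERPINE2 (-0.35 ± 0.08) and PLAU (-0.31 ± 0.08), and 0 higher after heat shock, beside 6.01% and 4.51% of all genes. The 3 became 0 without wounded replicate 1, wounded replicate 2 or heat shocked replicate 3, and 1 without heat shocked replicate 1. MMP1 and MMP10, collagenase 1 and stromelysin 2, rose after both injuries, by 1.61 and 1.80 and by 1.58 and 1.89 against the same controls, and did not pass between them (adjusted p = 0.609 and 0.409). Of 25 matrix genes, 3 were higher after heat shock (P4HA2, P4HA1 and LAMB1) and 3 after wounding (COL5A1, COL4A2 and TGFBI), beside 4.51% and 6.01% of all genes. The wound side fell to 1 without wounded replicate 1 or wounded replicate 2. MMP7, SERPINE2, PLAU, COL4A2 and TGFBI were each lost in 3 to 6 of the 12 fits without 1 array, those without wounded replicate 1 or 2 among them, with adjusted p up to 0.138. All of these but TGFBI were also lost with the mean of all probe sets. The collagen receptor subunit ITGA2 rose after both injuries and more after wounding, at 9.73, 9.80 and 9.41 against 8.90, 8.83 and 8.61 and 7.89, 7.96 and 7.99 in controls (-0.87 ± 0.11, adjusted p = 0.000456).

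Cell cycle genes that passed mostly had the lower level after heat shock. Of 28 genes of G2 and mitosis, 6 were higher after wounding and 1 after heat shock, beside 6.01% and 4.51% of all genes. Their median was -0.17. Of the 28, 19 fell against control after heat shock, beside 7.92% of all genes, and 1 after wounding, beside 1.31%, and 0 rose after either injury. KIF2C, a microtubule depolymerase, differed by -0.78 ± 0.07 (adjusted p = 2.96e-05), falling by 0.74 after heat shock with no change past the threshold after wounding (adjusted p = 0.863). KIF11 stood at -0.44 ± 0.07 and BUB1B at -0.34 ± 0.07. The wound side of this list held 3 genes without heat shocked replicate 1, wounded replicate 1 or wounded replicate 2. Genes of G1, S phase and replication had 3 of 26 higher after wounding, RRM2 (-0.64 ± 0.08), CCNE1 (-0.52 ± 0.08) and PCNA (-0.24 ± 0.06), and 2 higher after heat shock, CDC25A (0.37 ± 0.10) and CDT1 (0.39 ± 0.10). The latter 2 became 0 without wounded replicate 1, wounded replicate 2 or heat shocked replicate 3 and 1 without heat shocked replicate 1 or 2, and the first 3 became 5 without heat shocked and wounded replicate 2 or 3. PCNA was lost without heat shocked replicate 1 or 2 or wounded replicate 2 (adjusted p up to 0.0731), and PCNA and CDT1 also with the mean of all probe sets or the 6 arrays alone. Against control, 0 of these 26 rose after either injury. After heat shock 14 fell and after wounding 7, beside 7.92% and 1.31% of all genes.

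Several smaller lists had calls on the wound side only. Of all genes, 4.51% were higher after heat shock and 6.01% after wounding, so 0 on a side says little in a list this small. Of 14 cyclic nucleotide phosphodiesterases, 4 were higher after wounding and 0 after heat shock: PDE7A (-0.70 ± 0.10), PDE11A (-0.67 ± 0.16), PDE7B (-0.63 ± 0.13) and PDE3B (-0.35 ± 0.08), with 2 left without heat shocked replicate 1. PDE11A was also lost without heat shocked replicate 2 or wounded replicate 1 or 2 (adjusted p up to 0.0798). PDE7A and PDE7B fell after both injuries, by 1.14 and 1.28 after heat shock and by 0.44 and 0.65 after wounding. The aryl hydrocarbon receptor genes CYP1B1 (-0.94 ± 0.13) and TIPARP (-0.77 ± 0.11) and the endothelin genes EDN1 (-0.60 ± 0.07) and ECE1 (-0.36 ± 0.07) were the 2 of 8 and 2 of 6 that passed, all on the wound side. BCL2L1, which blocks apoptosis, was higher after heat shock at 0.66 ± 0.09, having fallen by 0.52 after wounding (adjusted p = 0.00546). Splicing genes were split, with 4 of 24 higher after wounding and 2 after heat shock. The splicing kinases CLK1 (-0.84 ± 0.12) and CLK4 (-0.47 ± 0.09) and the SR proteins SRSF2 (-0.40 ± 0.11) and SRSF3 (-0.20 ± 0.06) were on the wound side, and CLK3 (0.44 ± 0.12) and SRSF11 (0.27 ± 0.08) on the other. CLK4 lost its call with the mean of all probe sets (-0.21, adjusted p = 0.0775). CLK3, SRSF11, SRSF2 and SRSF3 each lost theirs in 5 to 10 of the 12 fits without 1 array (adjusted p up to 0.147), all of them without control replicate 1, heat shocked replicate 1 or 2, or wounded replicate 1 or 3. The wound side then held 2 genes and the other 0. Ribosomal proteins (21 genes), oxidative phosphorylation (19 genes) and interferon-induced genes (18 genes) had 0 that passed in limma, beside 10.5% of all genes. Of the 18 interferon-induced genes, 8 had means under the marker level in both groups, which limits what the comparison can show for them.

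A gene was counted as moved in opposite directions when it passed against control after both injuries with opposite signs. There were 23 such genes (0.127% of all), 8 up after heat shock and down after wounding (0.0441%) and 15 the reverse (0.0827%). By contrast 199 genes rose after both (1.1%) and 117 fell after both (0.645%), and these comparisons share the 3 control arrays. All 23 passed in the direct comparison, as 10.5% of all genes did, and their heat shocked and wounded values did not overlap, as in 28.3%. Both follow largely from how the 23 were chosen, since opposite changes against shared controls add up in the direct difference.

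AVPI1, an arginine vasopressin-induced gene, stood well clear of control on both sides. It read 10.70, 10.59 and 10.47 after heat shock, 9.90, 9.85 and 9.77 in controls and 9.20, 9.00 and 9.22 after wounding, so controls lay between the injuries without overlap. It rose by 0.75 after heat shock (adjusted p = 0.00183) and fell by 0.71 after wounding (adjusted p = 0.0061). OSBPL3, an oxysterol-binding protein, followed the same order at 8.13, 8.10 and 8.20, 7.57, 7.54 and 7.47 and 6.97, 7.05 and 6.92. AJUBA, which links adherens junctions to the Hippo pathway, read 9.74, 9.76 and 9.74, 9.33, 9.12 and 9.36 and 8.38, 8.51 and 8.56. The others up after heat shock and down after wounding were MICB, the sodium-proton exchanger SLC9A2, the zinc-sensing receptor GPR39, the hexokinase family member HKDC1 and STK32B.

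In the other direction, PRR5L, a component tied to mTORC2, read 5.25, 5.30 and 4.77 after heat shock, 5.69, 5.90 and 5.49 in controls and 6.49, 6.46 and 6.24 after wounding. The desmosomal cadherin DSC2 fell by 0.51 after heat shock and rose by 0.56 after wounding, and the antisense RNA ST20-AS1 fell by 0.45 and rose by 0.64. Their heat shocked means, 4.50 and 4.56, lay under the marker level, so the size of both falls is approximate. HOOK3, a dynein adaptor, fell by 0.62 and rose by 0.37. EEIG2, FHOD1, NAV3, DHX32, SPRED1, TP53I3, PNP, CERK and NARF moved likewise, with falls of 0.27 to 0.51 after heat shock and rises of 0.30 to 0.43 after wounding. FHOD1 is an actin-nucleating formin, NAV3 a microtubule-binding protein and CERK a ceramide kinase. DDR1, a collagen receptor, and RELL1 completed the 15, and they and STK32B were named after their values were seen.

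The count of 23 depends on the arrays, since each gene must pass in both comparisons. It was 4 without control replicate 1, control replicate 2 or wounded replicate 1, 5 without control replicate 3 or wounded replicate 2, and 12 without heat shocked replicate 1. The opposite signs themselves held in all 21 settings for all 23 genes, which were chosen for these signs on the same arrays. AVPI1 and OSBPL3 were called opposite in 21 of 21 settings, DHX32 in 20 and AJUBA in 19. At the other end, DDR1 was called opposite in 6 of 21, NARF in 7 and SLC9A2 in 9, and MICB in 14.

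**Figure D5:**
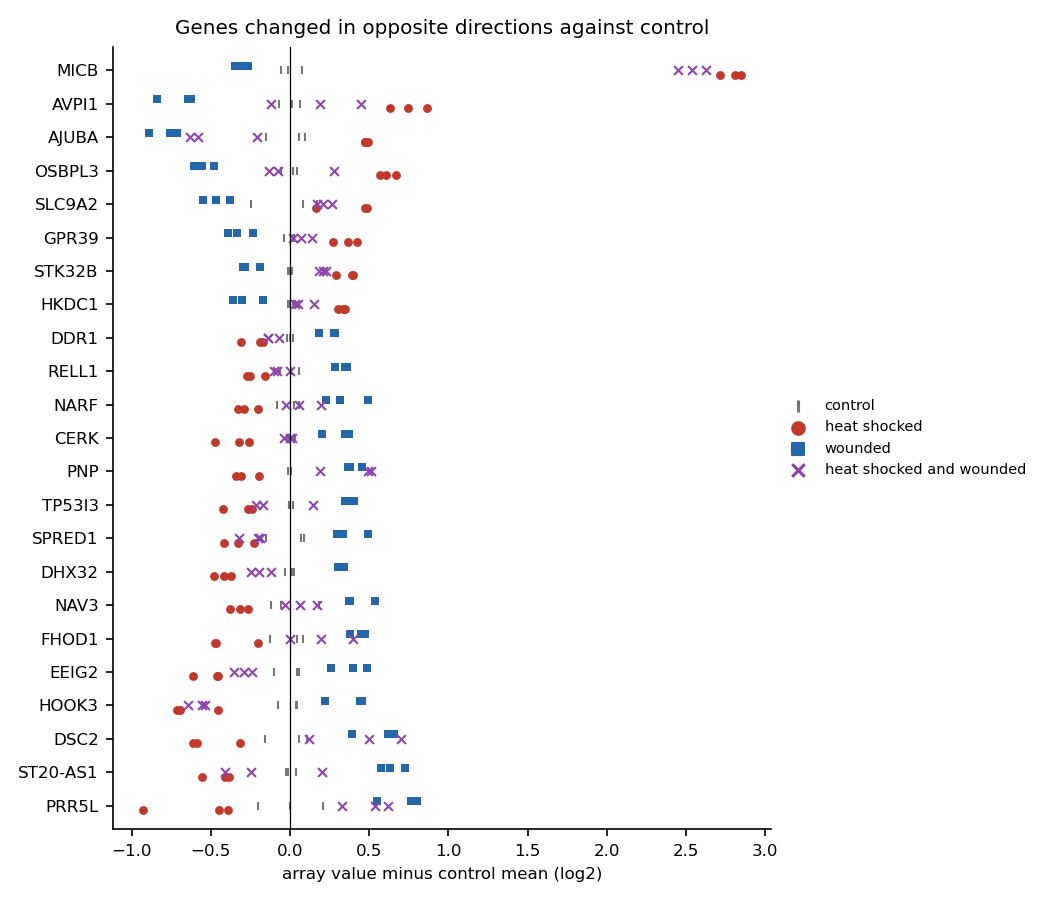
Array values minus the control mean, in log2 units (horizontal), for the 23 genes called in opposite directions, 1 row a gene and 1 point an array of each of the 4 groups. Heat shocked and wounded arrays lie on opposite sides of 0, and the mean of the arrays heat shocked and then wounded lies between them in all 23.

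In monolayers that were heat shocked and then wounded, all 23 genes had means between those of the single injuries. The same held for 570 of the 817 genes higher after heat shock, 566 of the 1089 higher after wounding and 5483 of all 18132, and genes chosen for means far apart leave more room between them. Against control 5 of the 23 were higher, 4 were lower and 14 did not pass, beside 23.1% of all genes that passed in that comparison. AVPI1 stood at 0.17 (adjusted p = 0.365) and OSBPL3 at 0.02 (adjusted p = 0.896), while MICB stayed at 2.54 and HOOK3 at -0.58. Over the whole comparison, the combined group lay nearer to the heat shocked mean for 616 of the 817 genes higher after heat shock (75.4%) and for 783 of the 1089 higher after wounding (71.9%), against 60% of all genes. The largest differences split: of the 74 genes at least 2-fold higher after heat shock 68 lay nearer to heat shock (91.9%), and of the 16 at least 2-fold higher after wounding 1 did (6.25%). These positions are given as a description without a test.

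Some genes moved far after both injuries and did not pass between them. GEM, a small GTPase, rose by 1.83 after heat shock and 1.43 after wounding (direct adjusted p = 0.256), and ARL14 by 2.21 and 1.82 (direct adjusted p = 0.141). Both passed without heat shocked replicate 3, ARL14 at 0.62 (adjusted p = 0.00158) and GEM at 0.63 (adjusted p = 0.0367). EDN2, an endothelin, fell by 1.26 and 1.45, and its values of 8.16, 7.99 and 8.09 and 7.93, 7.70 and 8.03 overlapped. PKDCC fell by 0.79 and 0.82 and FRMD3 by 0.82 and 0.86. A p that misses the threshold does not show that these levels were equal. GAPDH (-0.02 ± 0.05) and ACTB (0.07 ± 0.10), common reference genes, did not pass. Of 12 measured genes of a housekeeping list, 1 was higher after wounding, beside 6.01% of all genes. Against control, 2 of the 12 fell after heat shock, beside 7.92% of all genes.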

How the data were processed

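Log2 probe set levels of 12 PrimeView arrays were used as the authors deposited them. The submitters' processing notes name RMA and Affymetrix Expression Console, with versions not given in the sources used here. RMA corrects background, quantile normalizes the arrays and sums the probes of a set, which compresses differences of dim probe sets, and no detection calls were at hand. Groups and replicates came from the titles.

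Of 49293 probe sets, 1 with a missing value was left out, 44987 had 1 gene symbol, 1832 had several and 2473 were not listed. The platform annotation gave the names, and 44960 matched the RefSeq gene table of GRCh38.p14 by identifier, with 0 symbols changed. Each gene was read through its probe set with the highest mean over all arrays, giving 18132 genes. All 12 arrays entered one linear model, a mean for each of the 4 groups, in limma 3.58.1 under R 4.3.3 with default eBayes and 8 residual degrees of freedom. A gene passed at a Benjamini-Hochberg adjusted p under 0.05 over all genes. Errors after ± are SE, and differences are on the log2 scale. The fit was tested on simulated data. The number of arrays, 3 a group, limits the precision.

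The rule for named genes took the 15 largest differences in each direction with no overlap, up to 20 opposite genes, 5 moved alike in each direction, up to 4 called members of each of 43 lists, and a fixed set. Further list members were named after their values were seen. The comparison, the lists and the members were chosen with earlier results of these data known. Same-numbered replicates were not treated as pairs: deviations of same-numbered arrays correlated at 0.0612, -0.0137 and 0.225. Alternatives covered normalization, the filter on dim genes (a level of 5), the choice of probe set, eBayes settings, blocks, the 6 arrays alone and leaving out each array.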

Additional observations from a re-analysis of the deposited data

How the results depend on the processing

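Counts of genes that differed stayed within 1.5 times the value in the report under every alternative that kept all arrays of the contrast, from 1615 genes with the 6 arrays alone to 2426 without dim genes. Of the 1906 calls, these alternatives kept from 1365 (mean of all probe sets) to 1902 (probe set with the highest median), and 1476 with the 6 arrays alone. Of 1493 called genes with more than 1 probe set, 720 had another called the same way and 9 had another called the opposite way. Requiring a 2-fold difference left 90 genes, 74 higher after heat shock and 16 higher after wounding. Leaving out 1 array gave 1182 to 2174 genes, 536 to 935 of them higher after heat shock and 628 to 1239 higher after wounding. No gene that passed in the report passed in the other direction under any alternative. The share of calls higher after heat shock ranged from 40.2% to 49.9%. The count of opposite genes was 48 without dim genes, 50 with eBayes trend and robust, and 11 with the mean of all probe sets, and 4 to 27 when 1 array was left out. The cause was not tested. With the replicate number as a block, 1952 genes differed and 26 were opposite, and with the sample code S2 or S3 as a block, added after the data were seen, 2181 and 33. The numbers did not pair the samples by the correlations of their deviations. Of 135 named genes that passed, 94 kept their call in every alternative and 41 lost it in at least 1. Of 25 named genes that did not pass, 9 passed in at least 1, HSPA8 among them. SLC30A1 turned from 0.34 to -0.0298 with the mean of all probe sets (adjusted p = 0.914). RMA values without detection calls limit what can be said of genes near the marker level.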

Other observations

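Further lists of stress and metabolism genes differed in how they fell between the injuries. Of all genes, 4.51% were higher after heat shock and 6.01% after wounding. Of 22 genes of endoplasmic reticulum stress and the integrated stress response, 3 were higher after heat shock and 3 after wounding. TRIB3, a pseudokinase, stood at 0.81 ± 0.06 toward heat shock (limma adjusted p = 1.21e-05) and ATF3 at -0.96 ± 0.12. The wound side of that list held 1 gene without wounded replicate 1. Of 23 NRF2 target and antioxidant genes 4 were higher after heat shock, led by malic enzyme ME1 at 0.39 ± 0.06, and the count fell to 1 without heat shocked replicate 1 or 3 or wounded replicate 1 or 2 and to 2 without control replicate 1. Of 21 hypoxia and glycolysis genes 3 were higher after wounding (PDK1, NDRG1 and SLC2A1), and 0 without wounded replicate 1 or 2. Of 12 histone genes 3 were higher after wounding, H2AZ1 at -0.51 ± 0.08, and 1 without replicate 1 or 2 of either group. Against control, 0 of the 12 rose after wounding and 2 fell after heat shock. Among 25 proteasome subunits only PSMD11 passed, at -0.22 ± 0.05, and was lost without any one array of the contrast other than heat shocked replicate 2. The junction protein CLDN1 was higher after heat shock at 0.57 ± 0.08 (adjusted p = 0.000505).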
